A study of Homo sapiens with 6 samples.

Results

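The epidermal growth factor receptor (EGFR) family and its ligands were followed in RNA sequencing of a colorectal cancer cell line after siRNA against GLCC1, a long non-coding RNA that the sample labels call lncRNA-AF339830. The members are the 4 receptor genes EGFR, ERBB2, ERBB3 and ERBB4 and the 6 ligand genes AREG, EREG, TGFA, HBEGF, BTC and EPGN, chosen by gene symbol from the 56638 symbols in the count files. All 10 have a row of their own in each library. EREG, TGFA, BTC and ERBB3 were higher in the libraries labelled GLCC1 siRNA, with EREG at 2.95-fold of the control level, and EGFR was lower, at 0.640-fold. ERBB2, HBEGF and AREG did not pass the test, and ERBB4 and EPGN were at or near 0 counts.

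The receptors of this family sit in the cell membrane and signal as pairs. A ligand with an EGF-like domain brings 2 receptors together, the paired kinase domains phosphorylate each other's tails, and adaptor proteins that dock there pass the signal to the RAS-ERK and PI3K-AKT pathways. ERBB2 has no known soluble ligand and acts as a partner of the others, and ERBB3 has a weak kinase of its own and depends on its partner. The ligands are made as membrane proteins and are cut loose by metalloproteases. In the colon, EGFR signalling drives growth and repair of the epithelium, and EGFR antibodies are used against colorectal cancer, where the levels of AREG and EREG have been studied as markers of response.

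The study compared 3 libraries of cells transfected with nonspecific control siRNA with 3 libraries of cells transfected with GLCC1 siRNA. All 6 libraries were labelled as SW480, a line from a human colon adenocarcinoma grown in RPMI-1640 medium with fetal bovine serum, whereas the methods of the study name DLD-1, another colorectal cancer line, for the sequencing. The titles of the samples set the groups. In both groups the titles number the libraries after the word siRNA, and the study also numbers its GLCC1 siRNA sequences. Whether these numbers mark replicates or siRNAs is not stated, and they are called replicates below. The names of the libraries put the opposite siRNA on each group, so each direction given below rests on the titles. The control siRNA does not target GLCC1, and no rescue library was used here. The study states in general terms that its experiments used separately collected biological replicates, but the labels do not say so for these libraries, so p-values measure the spread between libraries, which may be technical.

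The libraries held 11948790 to 19042516 read pairs assigned to genes. Values are counts scaled to library size (CPM) after normalization by trimmed mean of M-values (TMM), fold changes set GLCC1 siRNA against control siRNA and come with their standard error (SE), and a gene was called when its Benjamini-Hochberg adjusted p from edgeR's quasi-likelihood test was under 0.05. GLCC1 has no row in the files. FARP1, the gene whose locus contains it, had 111 ± 2.13 CPM in the control and 64.8 ± 1.32 CPM in the GLCC1 siRNA libraries (SD, n = 3 each), a log2 fold change of -0.77 (SE 0.08, edgeR adjusted p = 9.21e-06), and whether its count holds reads of GLCC1 was not tested. GLCC1 siRNA replicate 2 had the fewest counts and stood apart from the other libraries of its group, with a chi-square per degree of freedom of 16.3 and 17.1 against them, where those other libraries gave 3.07 and pairs of control libraries gave 1.84 to 3.84. Of 10 epithelial markers, 6 fell and 1 rose, where 45.1% of all genes that averaged 1 CPM or more were called. The summed level of the markers was 5775 to 6309 CPM in the control and 2468 to 2876 CPM in the GLCC1 siRNA libraries. Most of this difference lay in the keratins KRT8, with means of 3584 and 1177 CPM, KRT19, with 881 and 347 CPM, and KRT18, with 423 and 120 CPM, whereas CDH17 rose from 134 to 183 CPM. KRT20, a keratin of the colon surface, was under 1 CPM on average in both groups. The leukocyte marker PTPRC, the fibroblast markers COL1A2, DCN and LUM and the endothelial markers PECAM1 and CDH5 had 0 counts in all 6 libraries. Of the other markers of these lists, CD14 was at 2.74 to 5.37 CPM and VWF at 0.318 to 1.40 CPM over the 6 libraries, and neither was called (edgeR adjusted p = 0.142 and 0.627). The summed fibroblast markers, nearly all COL1A1, were at 11.8 to 15.0 CPM in the control and 6.68 to 8.0 CPM in the GLCC1 siRNA libraries. COL1A1, the only fibroblast marker tested, was called lower (log2 fold change -0.86, edgeR adjusted p = 0.000293). The part of the lower keratins in the results below was not tested, and in bulk RNA fewer cells of a type and less RNA per cell cannot be told apart.

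Sequences bear on the receptors and ligands in 2 ways, the first of which is the siRNA. An siRNA can also lower transcripts whose 3′ UTR pairs with its seed, bases 2 to 8 of the guide, so the words that pair with the seed were searched for in the members. The target of GLCC1 siRNA 1 of the study is shown with the 8-base word that pairs with guide bases 1 to 8 in capitals, beside the matching stretches of the members' 3′ UTRs with the matching word in capitals.
siRNA 1 target in GLCC1, chr13:99049528-99049546, plus strand, hg19: ggaagagcaacACCTTGAA
EGFR 3′ UTR, chr7:55279121-55279150, plus strand, hg19: ggtacgttttaACCTTGAAagttttgcaat
EREG 3′ UTR, chr4:75252726-75252754, plus strand, hg19: tcaatctcctaACCTTGAgatccaccctc
ERBB4 3′ UTR, chr2:212245672-212245700, minus strand, hg19: ttggatactatACCTTGAttttttttttc

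EGFR thus carries the whole 8-base word, 5825 bases after the stop codon near the far end of a 3′ UTR of 6014 bases in GENCODE 44. EREG and ERBB4 carry the 7-base word ACCTTGA, and the other 7 members carry neither this word nor CCTTGAA. Among 17240 genes with an annotated 3′ UTR, 19.5% held at least one of the words on the transcript strand and 4.19% held the 8-base word. The median 3′ UTR of these genes was 1143 bases, against 6014 in EGFR, 7901 in ERBB4 and 3944 in EREG. Longer 3′ UTRs have more room for a word, and the shares were not matched for length. The 3 of 10 members are thus a description and not a sign of binding. Of the members with a word, EGFR was lower, EREG was higher and ERBB4 was not detected in the libraries labelled GLCC1 siRNA. The study also lists another GLCC1 siRNA, whose seed words were not searched for here. The sources do not say which GLCC1 siRNA was used for the sequencing, and the part of the word in the level of EGFR was not tested.

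The second is a near copy of AREG. AREG and AREGB lie on the same strand of chromosome 4, and the same 30 bases of the third exon are printed from both because the run is identical in them.
AREG exon 3, chr4:75314764-75314793, plus strand, hg19: ttgaacaggtagttaagcccccccaaaaca
AREGB exon 3, chr4:75484523-75484552, plus strand, hg19: ttgaacaggtagttaagcccccccaaaaca

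The AREG transcript of 1234 bases aligned over its whole length to the AREGB locus with 99.92% identity, and 935 of its 1085 windows of 150 bases (86.2%) were also found unchanged in AREGB. Read pairs that match both places equally are left out of both counts, so the counts of AREG hold only the pairs that could be told apart. The transcripts of the other 9 members aligned to no second gene.

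Of the 10 members, 8 had enough counts to be tested, and 5 of these were called, 4 higher (ERBB3, EREG, TGFA and BTC) and 1 lower (EGFR) in the GLCC1 siRNA libraries. Among all 23074 genes tested, 31.6% were called, 14.9% higher and 16.7% lower. Since genes with more reads are called more often, the share among the 14875 genes that averaged 1 CPM or more was 45.1%, and 7 members reached this level, 5 of them called. The members' shares lie above those of the table, but over so few genes that nothing is read from them. All 5 called members had groups of libraries that did not overlap. The share of all genes without overlap is not given here, so nothing is read from this either.

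**Figure D1:**
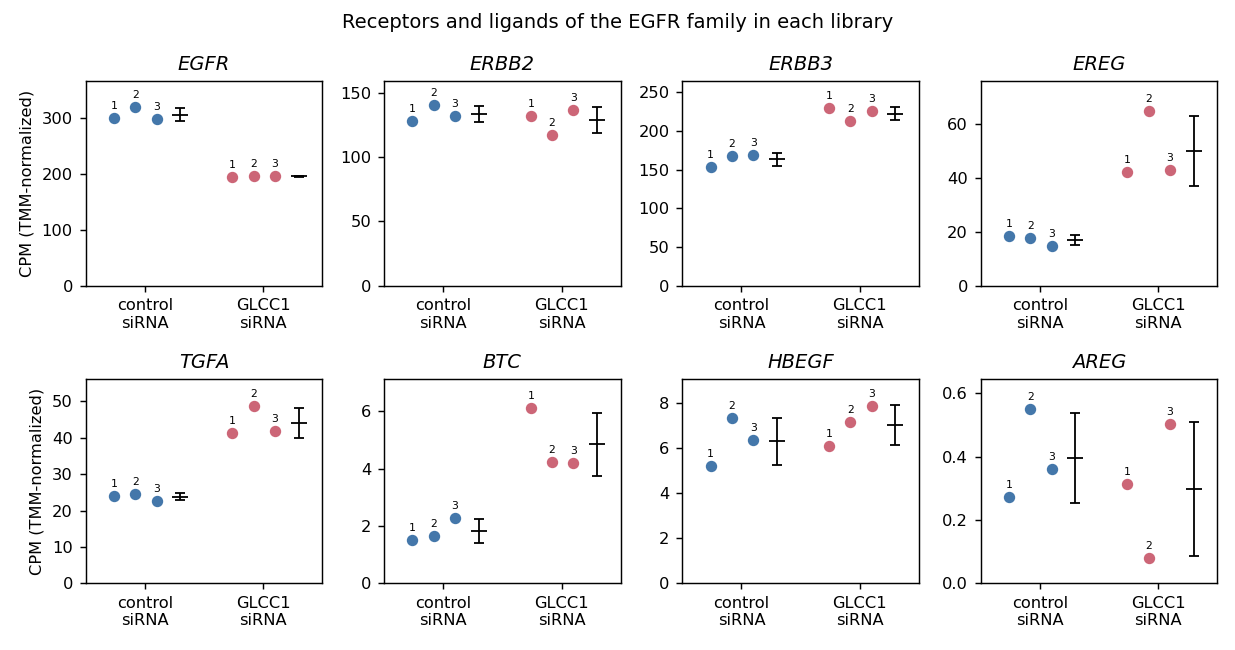
TMM-normalized CPM of 8 members in each library (y axis, from 0, its own scale for each gene), with points numbered by replicate in blue for control siRNA and red for GLCC1 siRNA, and the mean with its SD over 3 libraries at their right. EGFR lay between 297 and 318 CPM in the control and from 194 to 196 CPM in the GLCC1 siRNA libraries, the groups of ERBB3, EREG, TGFA and BTC were apart in the other direction, and those of ERBB2, HBEGF and AREG overlapped.

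The receptors were described first. EGFR, the receptor that gives the family its name and binds all 6 ligands listed here, lies at chr7:55086710-55279321 on the plus strand. Its level was 299, 318 and 297 CPM in the control libraries 1 to 3 and 194, 195 and 196 CPM in the GLCC1 siRNA libraries 1 to 3. The GLCC1 siRNA libraries were all lower and nearly alike, with 195 ± 1.09 CPM against 305 ± 11.7 CPM (SD, n = 3). The log2 fold change was -0.64 (SE 0.08, 95% interval -0.81 to -0.48, edgeR adjusted p = 2.38e-05). EGFR-AS1, a transcript annotated against EGFR, shares 186 bases of exon with it (1.17%) and had 6 to 19 counts per library. The strand setting of the counts is not given, so whether reads of that stretch were told apart between these genes is not known. The counts of EGFR were between 2456 and 5776.

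ERBB3, which binds neuregulins and carries many docking sites for PI3K, lies at chr12:56470583-56497289 on the plus strand. It had 154, 167 and 168 CPM in the control and 229, 212 and 225 CPM in the GLCC1 siRNA libraries. All GLCC1 siRNA libraries were above all control libraries, with means of 222 ± 8.86 and 163 ± 8.29 CPM (SD, n = 3). This was a 1.36-fold rise, at a log2 fold change of 0.45 (SE 0.08, 95% interval 0.27 to 0.62, edgeR adjusted p = 0.000751).

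ERBB2, the preferred partner of the other receptors, lies at chr17:37844167-37886679 on the plus strand. Its level was 128, 140 and 131 CPM in the control and 132, 117 and 136 CPM in the GLCC1 siRNA libraries, and the groups overlapped. The log2 fold change was -0.05 (SE 0.09, edgeR adjusted p = 0.695), with a 95% interval from -0.24 to 0.14. At this depth a change of the size of that in EGFR or ERBB3 is outside the interval. MIEN1 and PGAP3 share 6.93% of its exon bases and were not called either. ERBB4, a receptor for neuregulins that also binds BTC, HBEGF and EREG, had 0 counts in all 6 libraries. A count of 0 allows up to 3 counts, or 0.156 to 0.239 CPM in a library, and this limit covers counting error only.

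To compare the receptors with each other, levels were divided by the length of the merged exons of each gene. On this scale of CPM per kb, the order of levels in the control libraries was EGFR with 19.1 ± 0.731, ERBB3 with 13.9 ± 0.708 and ERBB2 with 12.9 ± 0.603 (SD, n = 3). EGFR was above the others in every control library, whereas the ranges of ERBB3 and ERBB2 overlapped. In the GLCC1 siRNA libraries the order was ERBB3 with 19.0 ± 0.756, ERBB2 with 12.45 ± 0.965 and EGFR with 12.25 ± 0.0686, and the ranges of ERBB2 and EGFR overlapped. With the canonical transcript in place of the merged exons, the control levels were 30.8 for EGFR, 29.2 for ERBB2 and 29.05 for ERBB3 in CPM per kb. EGFR still had the highest mean, but its range then overlapped those of the others. In the GLCC1 siRNA libraries ERBB3 was highest with either length, at 39.6 with the canonical transcript, where ERBB2, at 25.7 to 29.9, lay above EGFR, at 19.6 to 19.8, without overlap. The order of ERBB2 and EGFR in these libraries thus depends on which length is taken.

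Of the length-scaled receptor sum, EGFR made up 42.4%, 41.7% and 40.7% in the control and 27.3%, 29.4% and 27.5% in the GLCC1 siRNA libraries. ERBB3 made up 29.6%, 29.9% and 31.4% in the control and 43.9%, 43.4% and 43.0% in the GLCC1 siRNA libraries. For both, the groups did not overlap (two-sided exact permutation test, p = 0.1, the smallest that 3 against 3 libraries can give). ERBB2 held 28.1% ± 0.278 and 28.5% ± 1.16 (SD, n = 3), and its groups overlapped (exact permutation p = 0.6). The receptor sum itself was 46.0 ± 1.78 in the control and 43.7 ± 1.67 CPM per kb in the GLCC1 siRNA libraries, 0.95-fold (exact permutation p = 0.3, n = 3 each). Without scaling by length, the receptor sum was 581 to 626 CPM in the control and 525 to 558 CPM in the GLCC1 siRNA libraries, lower without overlap. Whether the receptor sum differed therefore depends on the scale, and 3 libraries against 3 cannot settle it.

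**Figure D2:**
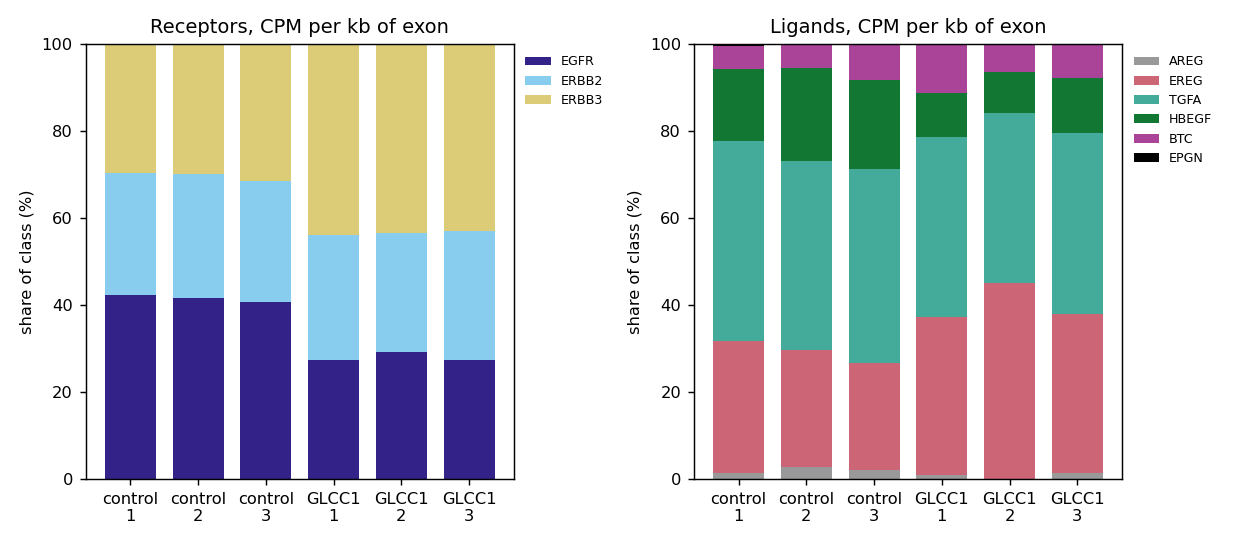
Share of each receptor (left) and each ligand (right) in the summed CPM per kb of exon of its class (y axis, %), one stacked bar for each library. AREG enters the ligand sum only by the read pairs that could be told apart from AREGB. The EGFR share ranges from 40.7% to 42.4% in the control and from 27.3% to 29.4% in the GLCC1 siRNA libraries, and the EREG share ranges from 24.6% to 30.2% in the control and from 36.3% to 44.9% in the GLCC1 siRNA libraries.

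Ratios of 2 receptors within a library do not depend on how libraries were scaled, and their difference between groups does not depend on gene length. The log2 ratio of EGFR to ERBB3 in CPM was 0.963, 0.926 and 0.819 in the control and -0.24, -0.12 and -0.20 in the GLCC1 siRNA libraries. The ratio was above 0 in every control library and below 0 in every GLCC1 siRNA library, a difference of -1.09. The log2 ratio of EGFR to ERBB2 differed by -0.59 and that of ERBB2 to ERBB3 by -0.50, again without overlap. Among 8 pairs of members compared, each of these receptor pairs had an exact permutation p = 0.1, the smallest possible, and 0.133 after Benjamini-Hochberg adjustment over the 8 pairs, so none can pass 0.05 in this design.

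Among the ligands, EREG, TGFA and BTC were higher. EREG encodes epiregulin, which binds EGFR and ERBB4, and lies at chr4:75230862-75254466 on the plus strand. It had 267, 320 and 243 counts in the control and 808, 816 and 764 counts in the GLCC1 siRNA libraries. In CPM these were 18.3, 17.6 and 14.6 in the control and 42.1, 64.9 and 42.7 in the GLCC1 siRNA libraries. The lowest GLCC1 siRNA library was above the highest control library, and replicate 2, the library that stood apart, was the highest. The log2 fold change was 1.56 (SE 0.16, 95% interval 1.21 to 1.91, edgeR adjusted p = 8.64e-06), and it was 1.34 without GLCC1 siRNA replicate 2.

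TGFA encodes transforming growth factor alpha, a ligand of EGFR, and lies at chr2:70674416-70781325 on the minus strand. It had 24.0, 24.6 and 22.8 CPM in the control and 41.3, 48.7 and 42.0 CPM in the GLCC1 siRNA libraries. The control libraries were close together, all GLCC1 siRNA libraries were higher, and replicate 2 was again the highest. The rise was 1.85-fold, with a log2 fold change of 0.88 (SE 0.10, 95% interval 0.67 to 1.10, edgeR adjusted p = 2.02e-05).

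BTC encodes betacellulin, a ligand of EGFR and ERBB4, and lies at chr4:75669969-75719733 on the minus strand. It was a low gene, with 22, 30 and 38 counts in the control and 117, 53 and 75 counts in the GLCC1 siRNA libraries. These were 1.51, 1.65 and 2.29 CPM in the control and 6.10, 4.22 and 4.195 CPM in the GLCC1 siRNA libraries. The groups did not overlap, and replicate 1 was the highest GLCC1 siRNA library here. The log2 fold change was 1.42 (SE 0.23, edgeR adjusted p = 0.000354), and at these counts its 95% interval was wide, from 0.92 to 1.91.

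HBEGF encodes heparin-binding EGF-like growth factor, which binds EGFR and ERBB4, and lies at chr5:139712428-139726188 on the minus strand. Its level was 5.21, 7.33 and 6.38 CPM in the control and 6.10, 7.16 and 7.89 CPM in the GLCC1 siRNA libraries. The groups overlapped, and the log2 fold change of 0.15 (SE 0.16, edgeR adjusted p = 0.53) had a 95% interval from -0.21 to 0.50. A change as large as that of TGFA lies outside this interval.

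AREG encodes amphiregulin, a ligand of EGFR, and lies at chr4:75310853-75320722 on the plus strand. It had 4, 10 and 6 counts in the control and 6, 1 and 9 counts in the GLCC1 siRNA libraries, and AREGB had 1, 1 and 2 counts in the control and 1, 0 and 1 counts in the GLCC1 siRNA libraries. The AREG groups overlapped (log2 fold change -0.34, SE 0.59, edgeR adjusted p = 0.703), and the 95% interval was wide, from -1.61 to 0.94. For these counts, a rise as large as that of EREG or BTC lies outside the interval. Smaller rises, and falls down to -1.61, lie inside it. Summing the counts of AREG and AREGB gave -0.43 (SE 0.55, edgeR adjusted p = 0.592). Since most of the AREG sequence is shared with AREGB, these counts say little of the amount of amphiregulin RNA. The same holds for the pairs with AREG among the 8 pairs. EPGN, the gene of epigen, another ligand of EGFR, had 2, 1 and 0 counts in the control and 0, 1 and 0 counts in the GLCC1 siRNA libraries, 4 in all, and was not tested.

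**Figure D3:**
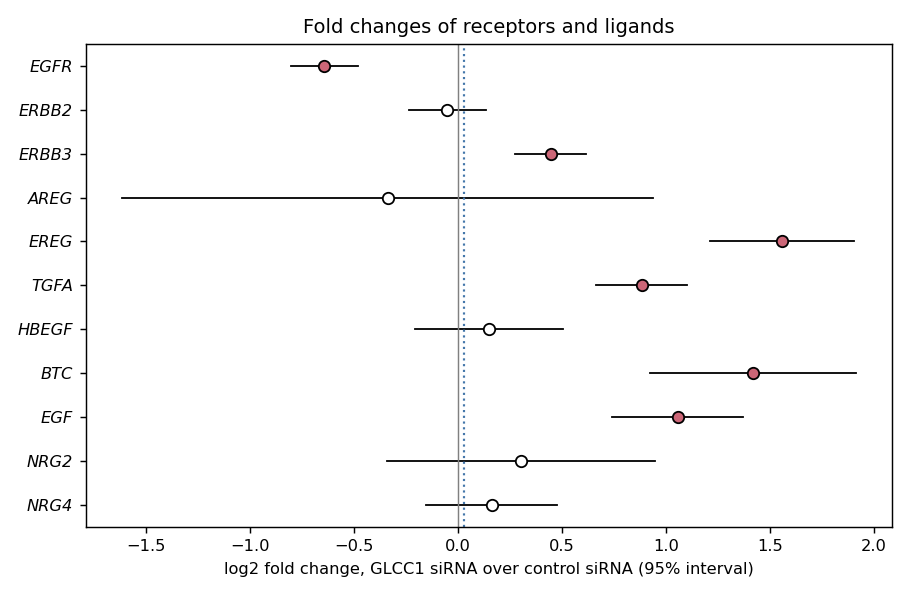
Log2 fold change, GLCC1 siRNA over control siRNA (x axis), of the 8 members tested and of EGF, NRG2 and NRG4, with the 95% interval as a line, filled red where the edgeR adjusted p was under 0.05 and open otherwise. The dotted line is the median of all 23074 genes tested, 0.03. EREG is farthest to the right at 1.56, EGFR is on the left at -0.64, and the interval of AREG spans -1.61 to 0.94.

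Per kb of exon, the order of ligands in the control libraries was TGFA with 4.84 ± 0.188, EREG with 2.95 ± 0.342, HBEGF with 2.11 ± 0.355, BTC with 0.685 ± 0.156 and AREG with 0.241 ± 0.0862 CPM per kb (SD, n = 3). None of these neighbours overlapped between their control libraries, but the place of AREG is not a rank of its RNA, since its counts leave out the pairs that also match AREGB. In the GLCC1 siRNA libraries TGFA and EREG stood at 8.94 ± 0.831 and 8.74 ± 2.27 CPM per kb and overlapped, followed by HBEGF with 2.36 ± 0.3005 and BTC with 1.82 ± 0.412. The summed ligands were at 10.6, 11.5 and 10.4 CPM per kb in the control and 20.3, 25.3 and 20.5 CPM per kb in the GLCC1 siRNA libraries. This was 2.03-fold, without overlap (two-sided exact permutation p = 0.1, the smallest possible). The sum holds AREG only by the read pairs that could be told apart from AREGB. It is therefore not the whole ligand RNA, and the same limit applies to the ligand shares.

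Within the ligand sum, the share of EREG was 27.2% ± 2.83 in the control and 39.2% ± 4.91 in the GLCC1 siRNA libraries, and that of HBEGF was 19.4% ± 2.61 and 10.8% ± 1.81 (SD, n = 3). TGFA held 44.6% ± 1.31 and 40.7% ± 1.36, so its share was lower although its level rose. These shares did not overlap between the groups (exact permutation p = 0.1 for each), and the BTC share of 6.35% ± 1.68 and 8.43% ± 2.60 did (exact permutation p = 0.3). The ratio of HBEGF to TGFA moved in the same way, with log2 ratios in CPM of -2.20, -1.75 and -1.83 in the control and -2.76, -2.77 and -2.41 in the GLCC1 siRNA libraries. Ligand and receptor moved apart in the pair of EREG and EGFR, with log2 ratios in CPM of -4.03, -4.17 and -4.34 in the control and -2.20, -1.59 and -2.20 in the GLCC1 siRNA libraries. The difference of 2.19 was the widest among the pairs without AREG, with an exact permutation p = 0.1 and 0.133 after adjustment over the 8 pairs.

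EREG, AREG, EPGN and BTC are neighbours on chromosome 4, in a stretch of 546 kb from 75174187 to 75719733 in which the files list 8 genes. Only EREG and BTC, near one end and at the other end of the stretch and on opposite strands, were called. AREG, which lies next to EREG, was not called, nor was AC142293.3, an antisense annotation named after its values were seen, with 0, 1 and 0 counts in the control and 4, 0 and 7 counts in the GLCC1 siRNA libraries (edgeR adjusted p = 0.104). The remaining 4 genes had too few counts to be tested. No shift of the whole stretch could therefore be read from these counts.

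EGF and the neuregulins are further ligands of the same receptors. EGF, the founding ligand of EGFR, had 4.94, 5.57 and 6.02 CPM in the control and 12.1, 12.6 and 9.84 CPM in the GLCC1 siRNA libraries, without overlap. Its log2 fold change was 1.06 (SE 0.15, edgeR adjusted p = 0.000104). The neuregulins NRG1 and NRG2 bind ERBB3 and ERBB4, and NRG3 and NRG4 bind ERBB4. NRG2 and NRG4 had log2 fold changes of 0.30 and 0.16 and were not called (edgeR adjusted p = 0.477 and 0.437), and 38.2% of the exon bases of NRG4 are shared with FBXO22. NRG3 had 0 counts in all libraries, and NRG1 had 3 counts in GLCC1 siRNA replicate 3 and 0 elsewhere. NRG2, with 13 to 39 counts per library, was thus the only neuregulin that binds ERBB3 and could be tested.

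Of 13 listed genes that release or carry the ligands, 12 were tested, 6 fell, 1 rose and 5 were not called. All 12 averaged over 1 CPM, a level at which 45.1% of all genes were called, and the counts of this and the following lists are to be read against that share. Their median log2 fold change was -0.16, where that of the whole table was 0.03. ADAM17, the protease that cuts TGFA, AREG, EREG and HBEGF from the membrane, fell from 73.8 to 46.5 CPM (log2 fold change -0.67, edgeR adjusted p = 8.16e-05). FRMD8, which holds ADAM17 and its carriers at the cell surface, fell by 0.69 on the log2 scale (edgeR adjusted p = 0.000345). RHBDF1 and RHBDF2, the carriers of ADAM17 called iRhoms, and ADAM9, another protease, are named here after their values were seen, with log2 fold changes of -0.55, -0.34 and -0.43 (edgeR adjusted p = 0.0183, 0.0321 and 0.00196). The sixth gene that fell was TIMP3, an inhibitor of ADAM17, from 20.8 to 8.95 CPM (log2 fold change -1.21, edgeR adjusted p = 4.01e-06). ADAM15, another metalloprotease, rose from 79.1 to 172 CPM (log2 fold change 1.12, edgeR adjusted p = 9.65e-06). ADAM10, which cuts BTC and EGF, was at 212 and 218 CPM and was not called (edgeR adjusted p = 0.791). NRD1, nardilysin, which enhances shedding by ADAM17, was at 144 and 146 CPM (log2 fold change 0.01, edgeR adjusted p = 0.922) and is named after its value was seen. The list thus held genes on both sides of ligand release among those that fell, and others that were not called.

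Of 20 genes for adaptors and effectors that dock on the receptors, all were tested, 8 rose, 4 fell and 8 were not called, with a median log2 fold change of 0.13. PIK3R1, a regulatory subunit of PI3K, rose from 30.5 to 50.03 CPM (log2 fold change 0.71, edgeR adjusted p = 6.79e-05). The other regulatory subunits listed, PIK3R2 and PIK3R3, were not called and are named after their values were seen. Their log2 fold changes were -0.09 and 0.09 (edgeR adjusted p = 0.585 and 0.613). NCK1, an adaptor to the actin skeleton, rose by 0.50 on the log2 scale (edgeR adjusted p = 0.00294). EPS8, an EGFR substrate that links it to actin, fell from 120 to 72.5 CPM (log2 fold change -0.72, edgeR adjusted p = 2.03e-05). GAB2, a docking protein for PI3K and SHP2, fell by 0.65 on the log2 scale (edgeR adjusted p = 0.00145).

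Of 23 genes that dampen the receptors, 5 were higher, 5 lower and 13 not called, with a median of -0.08. This is near the 45.1% called among all genes over 1 CPM. PTPRK, a receptor phosphatase that acts on EGFR, rose from 58.7 to 129 CPM (log2 fold change 1.13, edgeR adjusted p = 6.29e-07). EPN1 and LRIG3 also rose, with log2 fold changes of 0.52 and 0.50 (edgeR adjusted p = 0.00947 and 0.0042). CBLB, a ubiquitin ligase of the CBL family that marks active receptors for breakdown, fell from 13.9 to 8.75 CPM (log2 fold change -0.67, edgeR adjusted p = 0.00123). ERRFI1, which binds and blocks the EGFR kinase and is itself induced by EGFR signalling, fell from 838 to 684 CPM (log2 fold change -0.29, edgeR adjusted p = 0.0439). CBL and LRIG1 were not called, with log2 fold changes of 0.17 and -0.43 (edgeR adjusted p = 0.118 and 0.0813). Without GLCC1 siRNA replicate 2, 17 of these genes were called in place of 10.

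Of 18 transcripts known to follow ERK activity, 5 were higher, 5 lower and 8 not called, with a median of -0.06. The phosphatases DUSP4 and DUSP5, which turn off ERK and are induced by it, fell by 0.99 and 0.84 on the log2 scale (edgeR adjusted p = 3.81e-06 and 0.000165). The inhibitors SPRY2 and SPRY1, also induced by the pathway, rose, with log2 fold changes of 0.97 and 0.85 (edgeR adjusted p = 1.16e-06 and 9.23e-05). SPRY2 had 73.8 CPM in the control and 145 CPM in the GLCC1 siRNA libraries, and DUSP4 had 91.9 and 46.2 CPM. The called genes of this list thus did not all move in the same direction.

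Other receptor tyrosine kinases give a comparison for the receptors. Of 26 listed, 24 were tested, 4 rose, 6 fell and 14 were not called, with a median of -0.17. AXL, the receptor of GAS6, fell from 49.4 to 18.5 CPM (log2 fold change -1.41, edgeR adjusted p = 5.84e-07). EPHA2, an ephrin receptor, fell from 329 to 157 CPM (log2 fold change -1.07, edgeR adjusted p = 9.98e-06). FGFR4 and DDR1 fell by 0.75 and 0.55 on the log2 scale (edgeR adjusted p = 0.000374 and 0.0016). MET, the receptor of hepatocyte growth factor, was at 303 and 271 CPM and was not called (log2 fold change -0.17, edgeR adjusted p = 0.142). The fall of EGFR was thus smaller in size than those of AXL, EPHA2 and FGFR4. The following genes are named after their values were seen. EPHA4, at 1.69 CPM on average, fell most (log2 fold change -2.37, edgeR adjusted p = 7.73e-05). The 4 that rose were IGF1R, EPHB3, TYRO3 and INSR, with log2 fold changes of 0.51, 0.44, 0.35 and 0.24. Without GLCC1 siRNA replicate 2, 16 of the listed kinases were called in place of 10.

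**Figure D4:**
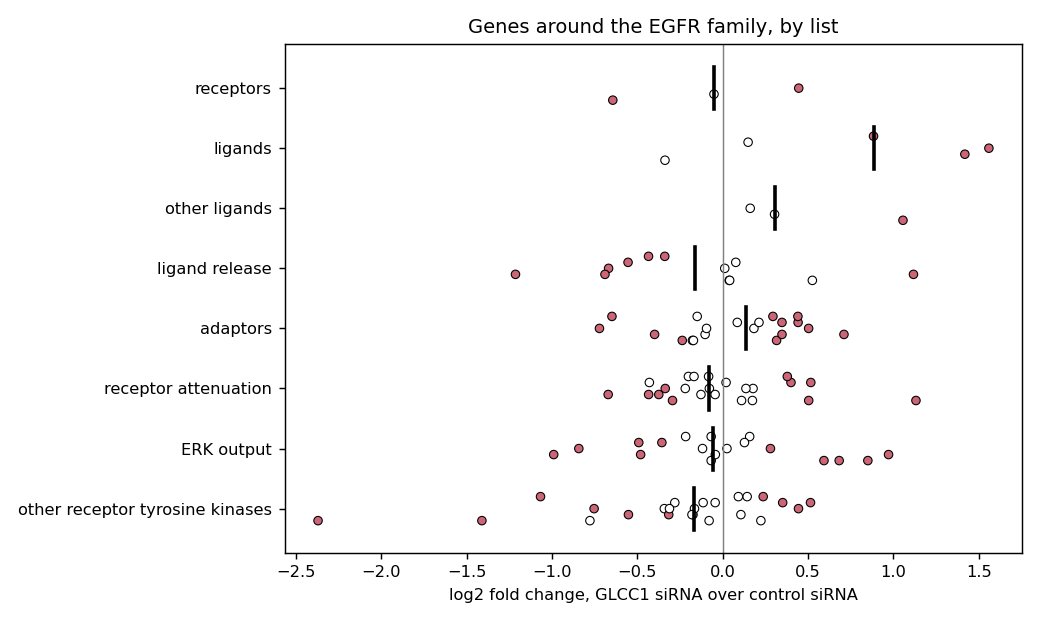
Log2 fold change, GLCC1 siRNA over control siRNA (x axis), of every tested gene of 8 lists (rows), filled red where the edgeR adjusted p was under 0.05 and open otherwise, with the median of each list as a black bar. The ligands have a median of 0.88 over 5 tested genes, the other ligands 0.30 over 3 and the receptors -0.05 over 3. The medians of the lists for ligand release, adaptors, receptor attenuation, ERK output and other receptor tyrosine kinases lie between -0.17 and 0.13.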

How the data were processed

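RNA of 6 samples was sequenced as paired-end reads. Per the labels and the paper's methods, the authors mapped reads to hg19 with TopHat 2.0.11, counted read pairs per gene with HTSeq in union mode and deposited raw counts, one file for each library. The strand setting is not given in the sources used here. HTSeq tallies outside genes held 11.2% to 14.2% (no feature) and were removed. Groups follow the titles. Genes under 5 counts summed in both conditions were removed, as in the paper's methods. The rest were fitted with TMM factors (0.950 to 1.05) in edgeR 4.0.16 under R 4.3.3, with the robust quasi-likelihood test and Benjamini-Hochberg adjustment over all genes. This fit was first run on simulated data with far fewer changed genes than were called here. It therefore does not show how the fit behaves under changes this widespread.

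The members and lists were chosen with earlier results of these data known. Named from each list were up to 4 called genes with at least 10 CPM on average and no overlap between groups, plus EGF, the neuregulins, AREGB, ADAM17, ERRFI1, LRIG1, CBL and MET. Lengths, positions and 3′ UTRs are from GENCODE 44 mapped to hg19, and transcripts were aligned with minimap2 2.31-r1302. The alternatives included DESeq2 1.42.0.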

Additional observations from a re-analysis of the deposited data

Results flagged for a closer look

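The percentage of read pairs without an annotated gene, a tally outside the gene counts, was above the control range of 11.2% to 11.5% in every GLCC1 siRNA library. The lowest GLCC1 siRNA library had 12.49% and the highest, replicate 2, had 14.2%. It moves with the groups for every receptor and ligand above, and its part in their values was not tested. Groups of 3 libraries are too small for a test of single outlying values.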

How the results depend on the processing

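The 5 called members (EGFR, ERBB3, EREG, TGFA and BTC) kept their direction and call under all 13 alternatives (DESeq2 size factors, library totals, DESeq2 with 2 filters, 2 other filters on low counts in edgeR, the replicate block and each library left out), and the number of members called was 5 in each. The log2 fold change ranged from -0.66 to -0.52 for EGFR, 0.40 to 0.57 for ERBB3, 1.34 to 1.68 for EREG, 0.81 to 1.01 for TGFA and 1.21 to 1.62 for BTC. The genes called over the whole table ranged from 5221 to 9920 with a library left out, against 7293, the highest without GLCC1 siRNA replicate 2.

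Directions turned for members that were not called. ERBB2 was at 0.071 with library totals (edgeR adjusted p = 0.563), and without each library ERBB2 ranged from -0.0922 to 0.0134 and AREG from -0.875 to 0.0092, the upper end of both without GLCC1 siRNA replicate 2. AREG could not be tested with at least 10 counts in every library. Library totals moved the median of all genes by 0.12, to 0.15, and 4735 genes were then higher and 2797 lower, against 3429 and 3864 with TMM. Relative to that median EGFR stood at -0.67 under both scalings. With the groups of the library names, EGFR is at 0.64, since every sign turns by construction.

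The shares are in percentage points, GLCC1 siRNA minus control. The EGFR share differed by -13.6 as reported, by -14.9 without scaling by length and by -12.0 with canonical transcripts, an alternative chosen after seeing the data, as was the DESeq2 fit with the filter of 1 count. The TGFA share differed by -3.97 as reported and -6.65 without scaling by length.

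Libraries with the same replicate number did not deviate together (correlations of -0.16, -0.29 and -0.01 across genes), so the numbers were not taken as pairs. With the replicate block, 6522 genes were called over the whole table, and 43 list genes in place of 50. The limit of low counts is seen in AREG, EPGN, BTC and ERBB4, with 0 to 117 counts per library. For AREG, the counts also leave out read pairs that match AREGB.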
